A study of Mus musculus with 4 samples.

Results

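The Ifi200 (PYHIN) genes encode a family of interferon-inducible proteins. Their expression was examined in J774.1 cells, a mouse monocyte-macrophage line, after treatment with 3 proteasome inhibitors. The family was taken as a list of 8 names, *Ifi202b*, *Ifi203*, *Ifi204*, *Ifi205*, *Mnda*, *Mndal*, *Pyhin1* and *Aim2*, and the transcript accession of each probe was looked up in the mouse RefSeq table of GRCm38.p6. Probes were found for 6 of these 8 genes, out of 20133 genes that could be named on the array. *Ifi202b*, *Ifi204*, *Mndal* and *Aim2* matched by their current symbol, whereas *Mnda* and *Pyhin1* are older symbols of the genes now called *Ifi211* and *Ifi209*. For *Ifi203* and *Ifi205* no probe could be named by accession, and these genes were not analysed here. The 6 genes had 9 probes, and all 6 were well above background on every array.

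There were 4 conditions, and exposure lasted 4 hours in each. Control cells received DMSO alone. MG132, epoxomicin and ONX0914 all block the proteasome and were each used at 1 μM, and for ONX0914 the labels name β5 and β5i as the subunits it inhibits. Total RNA of each culture was labeled with Cy3 and hybridized to 1 array, which gave 4 arrays with no replicate of any condition. In the study, these arrays served to look for genes whose expression differs after proteasome inhibition, in search of molecules behind the altered sensitivity of *Psmb8* mutant mice to imiquimod. The treatment label of the ONX0914 array gives ONX-0912, while its treatment protocol and the Methods give ONX0914, and the array was assigned by its title together with that protocol. J774.1 is 1 established line, and a single culture stood for each treatment. Short treatment of a cell line with inhibitors also differs from the *Psmb8* mutation that the mice carry.

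PYHIN proteins usually combine a pyrin domain, which binds other pyrin domains, with a HIN-200 domain, which binds double-stranded DNA. The family is known for sensing DNA in the cytosol and nucleus and for roles in growth arrest and myeloid differentiation. Interferons induce many of its members through STAT and IRF transcription factors. *Aim2* encodes the sensor that recruits the adaptor ASC and caspase-1 into an inflammasome, and the product of *Ifi202b*, which lacks a pyrin domain, can counteract it.

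The family lies in a single cluster on chromosome 1, between 173349547 and 174031755 of GRCm38.p6. By symbol, 14 RefSeq genes were counted there, 13 of them protein coding. The count took symbols of the Ifi200 series, *Aim2* and *Mndal*, and no genes under other kinds of symbol. *Aim2* stands at one end (173349547 to 173466040), followed by *Pyhin1* (173630859 to 173647928), *Ifi204* (173747293 to 173767069), *Mndal* (173857215 to 173880382), *Mnda* (173896339 to 173913087) and *Ifi202b* (173962569 to 173982844). Between *Aim2* and *Ifi204* there are 3 more family genes with a probe, *Ifi214* (173521311 to 173535957), *Ifi213* (173566280 to 173599348) and *Ifi208* (173673628 to 173698393), so that 9 of the 14 genes so counted could be measured.

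Because most of these neighboring genes were higher after the inhibitors, the 250 bases before their start sites were searched in the RefSeq promoter sequences of GRCm38.p6. The motifs were GAAANNGAA, the core bound by IRF factors, and TTCNNNGAA, the core bound by STAT dimers, on both strands and with N for any base. Of the 10 family genes with a sequence, 7 (70%) held the IRF-type motif, compared with 2211 of 27025 genes in the whole table (8.18%). Among the analysed members with a sequence, which are all but *Ifi204*, it was found in *Mndal* and *Mnda*, which is 2 of 5 (40%), and it was not found in these windows of *Aim2*, *Pyhin1* and *Ifi202b*. The STAT-type motif was found in *Ifi202b*, which is 1 of the 10 genes (10%), compared with 2197 of 27025 genes (8.13%). The start sites in the table for *Aim2*, *Mndal* and *Ifi203* lie inside the gene's annotated span, as do part of the 150 bases before the start of *Mnda*, *Ifi213* and *Ifi208*, so these windows are not all upstream of the whole gene. No match of one motif overlapped a match of the other. The 30 bases around the IRF-type motif are shown 5′ to 3′ for the 7 genes that hold it, together with the aligned bases of *Pyhin1*, because they show how nearly the copies are alike; capitals mark the motif.
*Ifi214*, chr1:173536017-173536046, minus strand: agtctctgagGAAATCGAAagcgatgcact
*Ifi213*, chr1:173599326-173599355, minus strand: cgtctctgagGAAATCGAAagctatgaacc
*Ifi208*, chr1:173673597-173673626, plus strand: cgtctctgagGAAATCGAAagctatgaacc
*Mndal*, chr1:173880204-173880233, minus strand: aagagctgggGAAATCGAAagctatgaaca
*Mnda*, chr1:173913064-173913093, minus strand: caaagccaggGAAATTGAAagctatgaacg
*Ifi203*, chr1:173942508-173942537, minus strand: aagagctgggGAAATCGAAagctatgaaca
*Ifi205*, chr1:174031870-174031899, minus strand: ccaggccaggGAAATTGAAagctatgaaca
*Pyhin1*, chr1:173630770-173630799, plus strand: aatctctgagtaaatcgaaagagatgcact

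The first base of the motif stood 79 bases before the start in *Ifi214*, 73 in *Ifi213*, 58 in *Ifi208*, 36 in *Mndal*, 37 in *Mnda*, 134 in *Ifi205* and 35 before one of the start sites of *Ifi203*. *Ifi213* and *Ifi208* share all 30 bases printed, and so do *Mndal* and *Ifi203*. *Mndal* also had a match before a second start site, 53 bases away, on the other strand. The motif read GAAATCGAA in *Ifi214*, *Ifi213*, *Ifi208*, *Mndal* and *Ifi203*, and GAAATTGAA in *Mnda* and *Ifi205*. In *Pyhin1* the aligned bases carried the single substitution G1T relative to *Ifi214*, counted from 1 at the first base of the motif. The 150 bases before the start are shown for this pair, of which 140 (93.3%) are identical, and for *Ifi202b*, whose STAT-type motif, 148 bases before the start, is in capitals.
*Ifi214*, chr1:173535958-173536107, minus strand: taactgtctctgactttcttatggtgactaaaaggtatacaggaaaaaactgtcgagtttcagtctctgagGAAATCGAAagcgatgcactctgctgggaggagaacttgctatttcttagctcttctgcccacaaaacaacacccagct
*Pyhin1*, chr1:173630709-173630858, plus strand: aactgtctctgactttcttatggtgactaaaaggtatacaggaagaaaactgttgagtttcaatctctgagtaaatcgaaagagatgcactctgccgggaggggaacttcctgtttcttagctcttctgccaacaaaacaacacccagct
*Ifi202b*, chr1:173982845-173982994, minus strand: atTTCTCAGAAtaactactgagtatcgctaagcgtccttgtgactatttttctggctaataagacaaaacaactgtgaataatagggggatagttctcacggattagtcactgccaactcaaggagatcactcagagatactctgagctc

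Over the same 150 bases, *Ifi213* and *Ifi208* shared 133 (88.7%), *Ifi214* and *Ifi213* shared 96 (64%) and *Mndal* and *Mnda* shared 91 (60.7%). The other pairs aligned ran from 67 (44.7%, *Aim2* and *Mndal*) to 88 (58.7%, among them *Ifi214* and *Ifi208*). Copies within a gene family are not independent of each other, and a motif match does not show that a factor was bound. Near-identical paralogs can also bind each other's probes, and this was not tested.

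The arrays were comparable in overall signal. Between 60.3% and 63.1% of spots were well above background, no spot was saturated, and the 75th percentile of the signal, on which each array was scaled, lay between 1453 after MG132 and 1683 after epoxomicin. Macrophage markers were well above background on all 4 arrays for 8 of 8 genes with a probe, among them *Csf1r*, the receptor for macrophage colony-stimulating factor, with a signal of 210824 after DMSO. Treated cells had 165950, 193542 and 201426 in the order MG132, epoxomicin and ONX0914. Some of the other macrophage markers shifted more. *Lyz2* had 3756 after DMSO and 2184, 1894 and 4019 in the same order of inhibitors. *Mertk* went the other way, with 50.9 after DMSO and 91.8, 81.1 and 72.2. B cell markers were above background on no array (0 of 3), and T cell markers were above on all arrays for 2 of 4 (*Cd3e*, from 604 to 849, and *Cd4*, from 3679 to 4575), while *Cd3d* and *Cd8a* were not. Of 3 fibroblast markers, *Col1a2* was above background on all arrays and *Pdgfra* after DMSO (38.6) and epoxomicin (24.1), and of 3 epithelial markers, only *Krt18* was above it, after epoxomicin. In RNA from whole cultures, a change in the number of expressing cells and a change in RNA per cell cannot be told apart.

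With all 3 inhibitors most Ifi200 genes were higher than after DMSO. At least a 2-fold difference (1 on the log2 scale) was reached by 5 of 6 genes after MG132, compared with 7.24% of all 13769 genes compared, by 5 of 6 after epoxomicin, compared with 8.41% of 13871 genes, and by 4 of 6 after ONX0914, compared with 3.27% of 13793 genes. No member was at least 2-fold lower, which was the case for 3.65% of all genes after MG132, 4.49% after epoxomicin and 1.41% after ONX0914. At a 4-fold difference, 4 of 6 members remained after MG132 (1.96% of all genes), 5 of 6 after epoxomicin (2.42%) and 2 of 6 after ONX0914 (0.827%). The 2 after ONX0914 were *Mnda* (2.39, from a DMSO signal of 71.6) and *Pyhin1* (2.02, from 346). Neither stayed at 4-fold under another background correction, normexp, described below. The median log2 difference of the members was 2.49 after MG132, 2.77 after epoxomicin and 1.52 after ONX0914, and that of all genes was -0.02, -0.04 and -0.01. The 3 comparisons share the DMSO array, so a deviation of that array enters all of them. With 1 array per condition there is no replicate check and no test across cultures. The error given with a difference comes from the scanner software and covers the measurement on the array alone. For bright probes it was at or close to 10% of the signal on every array, so it is a model value and not an observed spread. The median SD between spots of 1 probe was 0.055 to 0.061 on the log2 scale.

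**Figure D1:**
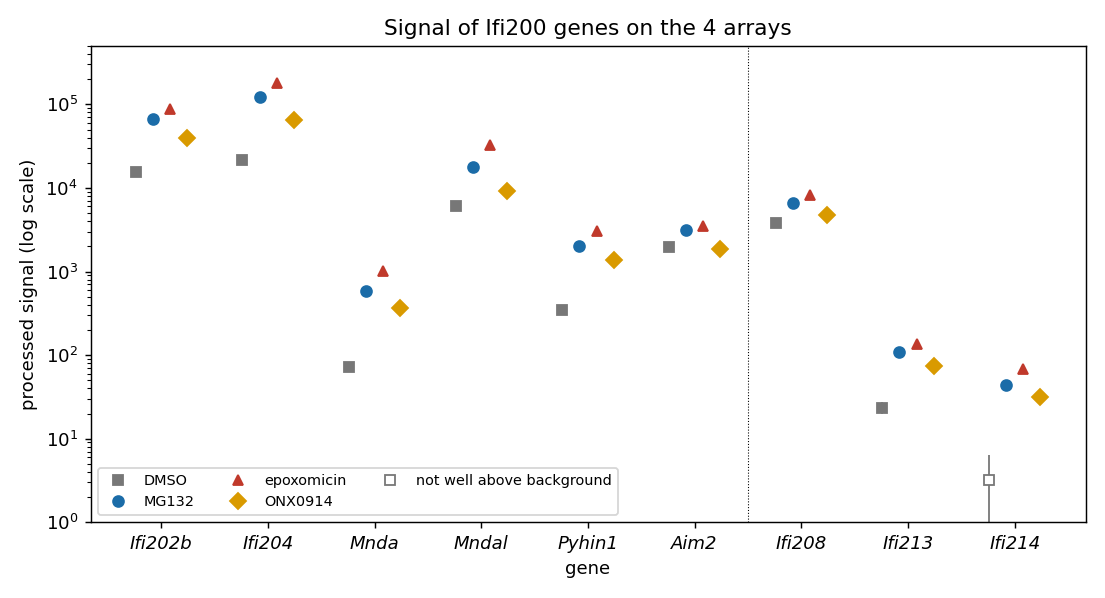
Processed signal (log scale, arbitrary units) of each Ifi200 gene on the DMSO, MG132, epoxomicin and ONX0914 arrays, with bars for the software's error; the genes right of the dotted line are not on the list, and an open symbol is not well above background. The epoxomicin symbol is the highest of the 4 for every gene, and the DMSO symbol is the lowest for every gene except *Aim2*, whose signal was 1878 after ONX0914 and 1947 after DMSO.

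*Ifi204*, whose product takes part in the interferon response to DNA and in myeloid differentiation, had a signal of 21525 after DMSO, 122882 after MG132, 180130 after epoxomicin and 65679 after ONX0914. The DMSO array was the lowest and the epoxomicin array the highest. After scaling, the log2 difference from DMSO was 2.70 after MG132 (6.50-fold), 3.04 after epoxomicin (8.23-fold) and 1.65 after ONX0914 (3.13-fold), each with an error of 0.20. Among all genes compared, these differences ranked 129, 126 and 187 from the highest.

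*Ifi202b* was measured by a pair of probes. The brighter had a signal of 15402 after DMSO, 66044 after MG132, 88758 after epoxomicin and 39404 after ONX0914, in the same order of arrays as *Ifi204*. Its log2 difference was 2.29 after MG132 (4.88-fold), 2.50 after epoxomicin (5.66-fold) and 1.39 after ONX0914 (2.62-fold), with an error of 0.20. The other probe, designed to a different accession of the gene, gave 2.36, 2.47 and 1.37 on the log2 scale, from signals of 13363, 60372, 75519 and 33766. The probes differed from each other by less than this error with each inhibitor.

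*Mnda*, related to the human myeloid cell nuclear differentiation antigen, had a low signal after DMSO, at 71.6, and 580 after MG132, 1019 after epoxomicin and 367 after ONX0914. By the brightest probes its log2 differences were above those of the other 5 members, 3.21 after MG132 (9.23-fold), 3.81 after epoxomicin (14.0-fold) and 2.39 after ONX0914 (5.25-fold) on the log2 scale, with an error of 0.21. Their ranks were 73, 61 and 66 from the highest. The choice of background correction moved them. Under normexp, which adds 50 to every signal, they were 1.32, 1.79 and 0.55, and *Mnda* then no longer reached a 2-fold difference after ONX0914 and was below *Ifi204*, *Ifi202b*, *Pyhin1* and *Mndal* with each inhibitor. With the mean over probes, *Pyhin1* had the same value as *Mnda* after MG132, 3.21.

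*Pyhin1*, whose product is a nuclear member of the family, was measured by 3 probes to 1 accession. The brightest had a signal of 346 after DMSO, 2044 after MG132, 3059 after epoxomicin and 1363 after ONX0914, and its log2 differences were 2.75 (6.73-fold), 3.12 (8.69-fold) and 2.02 (4.04-fold), with an error of 0.20. The probe that was dimmest after DMSO went from 20.5 there to 301 after MG132, 514 after epoxomicin and 141 after ONX0914. Its log2 differences were 4.07, 4.63 and 2.83, with an error of 0.31. The remaining probe went from 37.9 to 233, 305 and 166, or 2.80, 2.99 and 2.17 on the log2 scale with an error of 0.26. All probes had DMSO lowest and epoxomicin highest, but the size of the difference varied among them by more than the error. Under normexp the brightest probe gave 2.08, 2.43 and 1.45.

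*Mndal*, which encodes an MNDA-like protein, had a signal of 6089 after DMSO, 17716 after MG132, 32549 after epoxomicin and 9204 after ONX0914. The log2 difference was 1.73 after MG132 (3.31-fold) and 2.39 after epoxomicin (5.25-fold), and 0.63 after ONX0914 (1.55-fold), which was short of a 2-fold difference. Its rank was 362 after MG132, 232 after epoxomicin and 943 after ONX0914.

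*Aim2*, measured by 1 probe, stood apart from the other members. Its signal was 1947 after DMSO, 3154 after MG132, 3506 after epoxomicin and 1878 after ONX0914. The log2 difference was 0.88 after MG132 (1.84-fold) and 0.82 after epoxomicin (1.77-fold), both short of 2-fold, and -0.02 after ONX0914 (0.989-fold), with an error of 0.20. The ONX0914 and DMSO arrays thus differed by less than the software's error, and the sign of this difference turned under normexp, to 0.02. The ranks of *Aim2* were 1221, 1543 and 7057. Of the family genes not on the list, *Ifi208* had 0.97, 1.08 and 0.36 by its brightest probe, and its other probes gave larger differences.

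**Figure D2:**
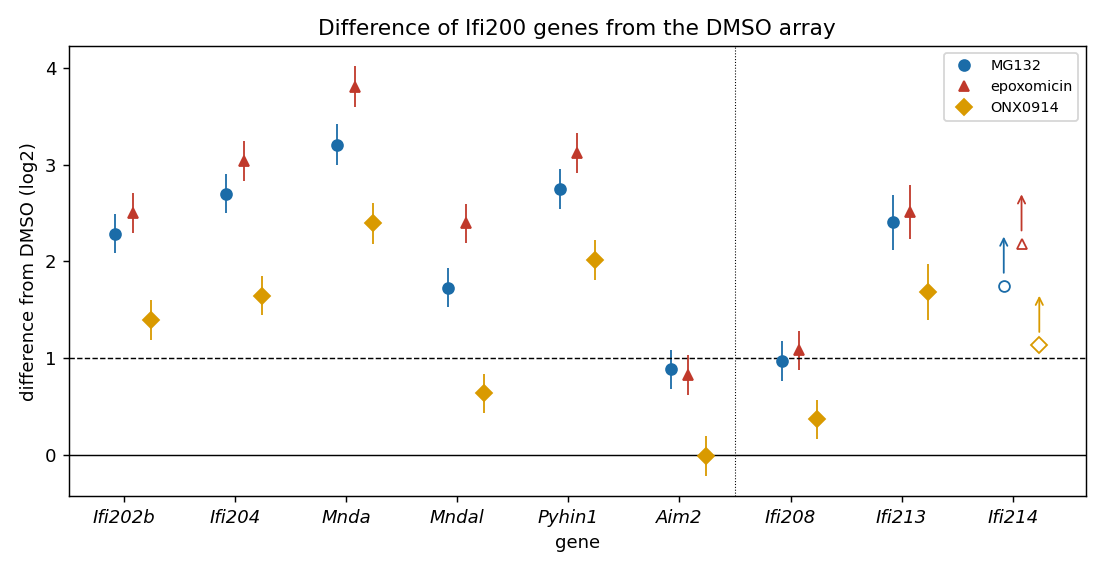
Log2 difference from the DMSO array (vertical axis) of each Ifi200 gene after MG132, epoxomicin and ONX0914, with bars for the software's error; open symbols with arrows are lower bounds, the dashed line is a 2-fold difference, and the genes right of the dotted line are not on the list. The members run from -0.02 for *Aim2* after ONX0914 to 3.81 for *Mnda* after epoxomicin.

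**Figure D3:**
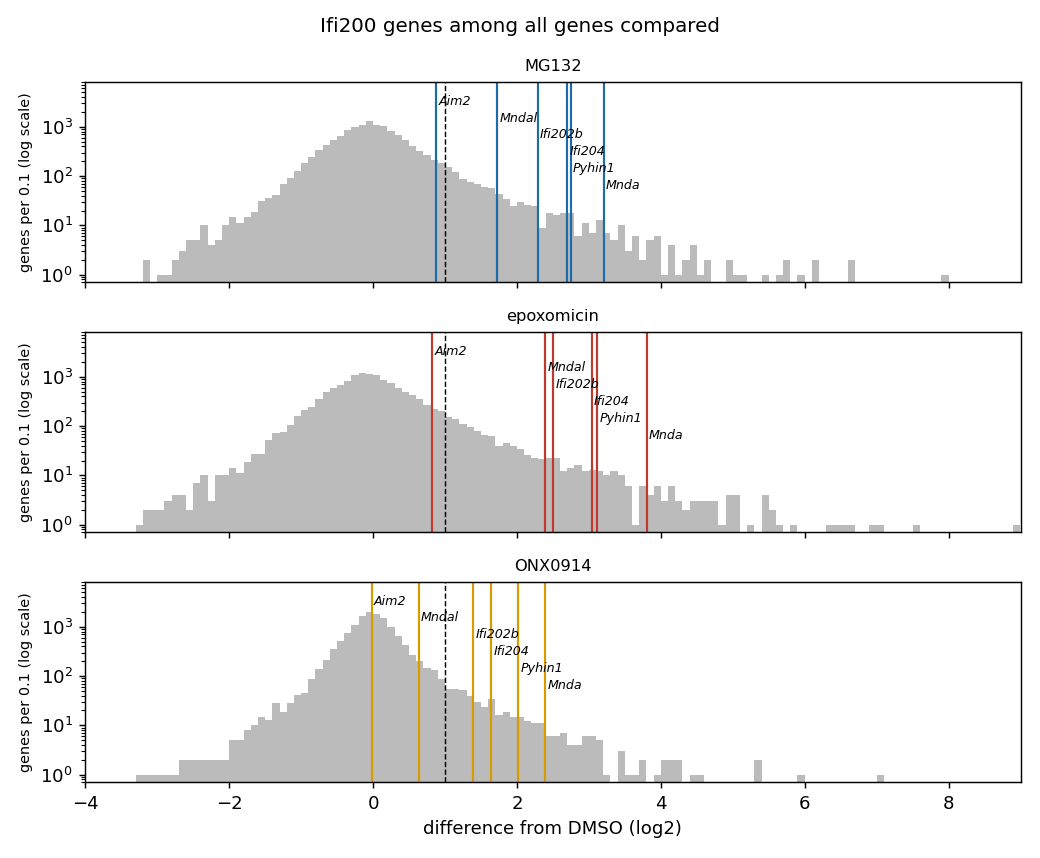
Number of genes (log scale) in bins of 0.1 of the log2 difference from DMSO, 1 panel per inhibitor; colored lines mark the 6 Ifi200 genes and the dashed line a 2-fold difference. After MG132 and epoxomicin all members but *Aim2* lie right of the dashed line, and after ONX0914 *Mndal* and *Aim2* lie left of it.

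The 3 further genes of the cluster that had a probe ran the same way. *Ifi213* went from 23.5 after DMSO to 109 after MG132, 136 after epoxomicin and 73.6 after ONX0914, and its log2 differences were 2.40, 2.51 and 1.68 with errors of 0.28 to 0.29. *Ifi214* was not well above background after DMSO (3.21) and had 43.3, 67.9 and 31.4 with the inhibitors, so it was at least 3.35-fold, 4.54-fold and 2.19-fold higher. The lower bounds use the lowest signal well above background on the DMSO array, 14.7.

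*Ifi208* was measured by 4 probes to 1 accession, and they did not give 1 size of difference. The brightest had 3807 after DMSO, 6545 after MG132, 8187 after epoxomicin and 4778 after ONX0914, which is 0.97, 1.08 and 0.36 on the log2 scale. The next went from 372 to 1110, 1651 and 611, or 1.76, 2.12 and 0.75 on that scale. The other probes were not well above background after DMSO (13.5 and 15.4), and their signals with the inhibitors were at least 11.1-fold, 13.8-fold and 6.33-fold higher for one and at least 6.30-fold, 7.88-fold and 2.37-fold higher for the other. After epoxomicin every probe of *Ifi208* was at least 2-fold higher, whereas after MG132 the brightest probe, and after ONX0914 the brightest and the next, fell short of 2-fold. With these 3 genes included, 7 of 9 genes were at least 2-fold higher after MG132 (7.24% of all genes), 8 of 9 after epoxomicin (8.41%) and 6 of 9 after ONX0914 (3.27%).

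Genes flanking the cluster were mostly at background. Of the 10 nearest genes with a probe, 5 on each side, 5 were above background on no array. Only *Olfr433*, an olfactory receptor gene, was above background on all 4 arrays, with a signal of 29.1 after DMSO, 24.1 after MG132, 47.4 after epoxomicin and 30.4 after ONX0914, and log2 differences of -0.08, 0.68 and 0.10. *Ackr1*, an atypical chemokine receptor gene on the *Aim2* side, was above background only after ONX0914, at 41.6. *Olfr1404* (22.3) and *Olfr429* (24.9) were likewise above it only after ONX0914, and *Olfr427* was above it after MG132 (21.9) and epoxomicin (30.1).

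**Figure D4:**
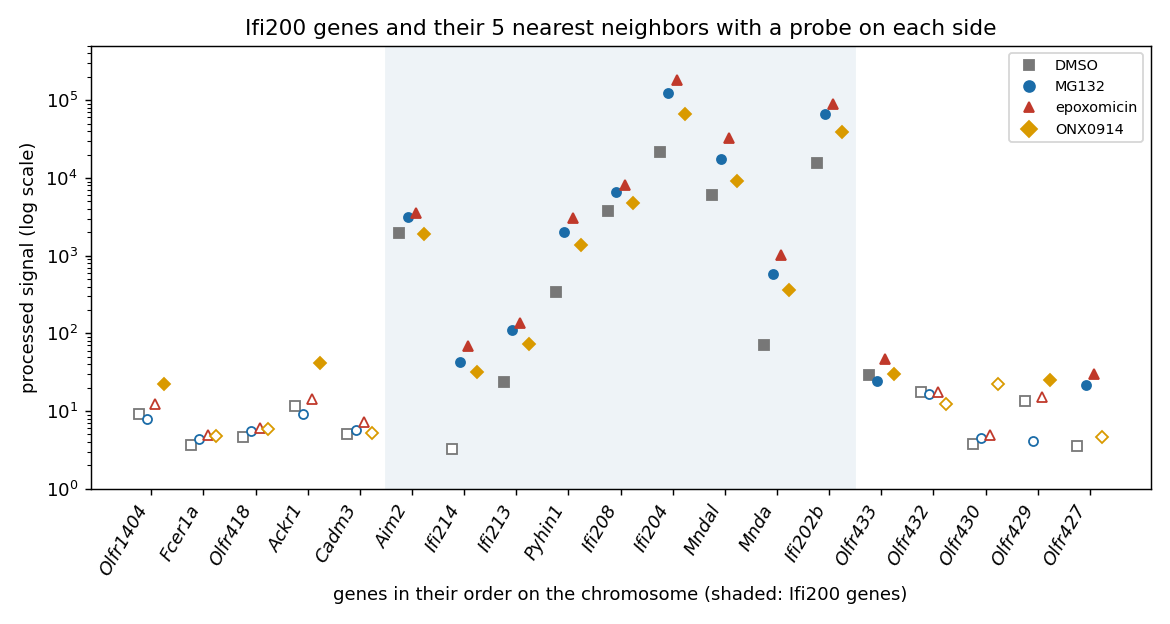
Processed signal (log scale, arbitrary units) of the Ifi200 genes with a probe (shaded) and of the 5 nearest genes with a probe on each side, in chromosome order, on the 4 arrays; open symbols are not well above background. All filled symbols outside the shaded part lie below 50, *Olfr433* after epoxomicin being the highest at 47.4.

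The inhibitors were applied at the same dose and for the same time, and their arrays were set side by side. No proteasome activity is given for these cultures, so the compound and the degree of inhibition cannot be told apart. The order was epoxomicin highest, then MG132, then ONX0914 for 5 of 6 members. This order of the 5 was the same under each of the other scalings, background corrections, probe rules and filters tried. The filter and the rule on bounds could not change it, since all members were well above background on every array. *Aim2* was the exception, at 0.88 after MG132 and 0.82 after epoxomicin, a difference below its error, and it took the same order as the others when no scaling was applied. Between ONX0914 and epoxomicin, 5 of 6 members were at least 2-fold lower after ONX0914, compared with 4.38% of all 13794 genes compared, and the members' median difference was -1.25 against 0.05 for all genes. *Mndal* had the largest of these differences, 3.39-fold lower after ONX0914 (-1.76 on the log2 scale, error 0.20), and *Aim2* the smallest, 1.79-fold lower (-0.84). Of all genes compared with DMSO, only 8.41% were at least 2-fold higher after epoxomicin, 7.24% after MG132 and 3.27% after ONX0914. The order of the 3 inhibitors was not particular to the family. Medians after MG132, epoxomicin and ONX0914 were 2.03, 2.22 and 1.16 for *Oas* genes and 3.03, 3.44 and 2.12 for *Gbp* genes. Those of *Ifit* genes were 3.28, 3.90 and 2.93, and those of 7 interferon-related transcription factors, in another order, 1.73, 1.55 and 1.36.

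Between ONX0914 and MG132, *Ifi204* (2.08-fold lower after ONX0914) and *Mndal* (2.14-fold lower) passed a 2-fold difference, which is 2 of 6 members compared with 3.05% of all genes, and the other members were between 1.66-fold and 1.86-fold lower. The members' median difference was -0.90, against 0.02 for all genes. Between epoxomicin and MG132 no member (0 of 6) was at least 2-fold higher after epoxomicin, compared with 0.785% of all genes. The median difference was 0.36, with *Mndal* (1.59-fold) and *Mnda* (1.52-fold) highest and *Aim2* at 0.960-fold. None of these differences could be tested, since each compound had 1 array.

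Expressed as a share of the log2 difference after MG132, the difference after ONX0914 was 0.609 for *Ifi202b*, 0.610 for *Ifi204*, 0.746 for *Mnda* and 0.733 for *Pyhin1*, but 0.366 for *Mndal* and -0.02 for *Aim2*. The corresponding ratios after epoxomicin lay between 0.933 for *Aim2* and 1.39 for *Mndal*. Under normexp the ONX0914 share of *Mnda* was 0.418 and that of *Mndal* 0.389, so the contrast between these genes depended on the background correction.

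A list of 10 genes held the adaptor, caspases and substrates that act with *Aim2* in the inflammasome, together with genes of other inflammasomes (*Nlrp3*, *Nlrc4*, *Nek7* and *Casp4*), and all were measured. Of these, 2 were at least 2-fold higher and 1 was at least 2-fold lower after MG132 and after epoxomicin. After ONX0914, 1 was higher. Of all genes compared, 7.24% after MG132, 8.41% after epoxomicin and 3.27% after ONX0914 were at least 2-fold higher. At least 2-fold lower were 3.65%, 4.49% and 1.41%. The list's median was 0.52, 0.50 and 0.04 on the log2 scale. *Casp4*, which encodes mouse caspase-11, had 2.78 after MG132, 2.96 after epoxomicin and 1.61 after ONX0914. *Il1b*, a cytokine that caspase-1 cleaves, had 1.43, 2.07 and -0.05. *Pycard*, which encodes ASC, was lower, at -1.33, -1.48 and -0.71, from signals of 10612 after DMSO, 3699 after MG132, 3872 after epoxomicin and 6319 after ONX0914. *Casp1* had 0.65, 0.67 and 0.50, and the pore-forming substrate *Gsdmd* had 0.56, 0.45 and 0.41.

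Another list of 10 held genes of DNA sensing and the STING pathway, together with the interferon-induced gene *Ifi35*. The list's medians were 0.36, 0.48 and 0.28. At least 2-fold higher were 3, 3 and 1 of its genes, beside 7.24%, 8.41% and 3.27% of all genes. At least 2-fold lower were 0, beside 3.65%, 4.49% and 1.41% of all genes. *Trex1*, a DNA exonuclease, had 1.61 after MG132, 1.83 after epoxomicin and 1.32 after ONX0914. *Cgas*, which senses cytosolic DNA, had 1.22, 1.69 and 0.28, and *Ifi35*, an interferon-induced gene that is no member of the family, had 1.61, 1.76 and 0.90. *Sting1* itself had -0.11, -0.07 and -0.09, and *Irf3*, which acts downstream of it, had -0.64, -0.65 and -0.25. The lowest value after epoxomicin was that of the kinase gene *Ikbke*, -0.98.

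Of 7 transcription factors known to act on interferon-induced genes, 6 were at least 2-fold higher after MG132 (7.24% of all genes). After epoxomicin 6 were higher (8.41%), and after ONX0914 4 were higher (3.27%). The medians of the 7 were 1.73, 1.55 and 1.36. *Irf7* had 2.98, 3.13 and 1.96 and *Irf1* had 2.51, 2.80 and 2.63, and the ONX0914 value of *Irf1* thus lay between the other values, whereas it was the lowest of the 3 for every Ifi200 member. *Irf5*, the lowest of the list after MG132, had -0.50, -0.54 and 0.21.

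Other interferon-induced families gave a frame for the size of these differences. Their counts stand beside 7.24%, 8.41% and 3.27% of all genes at least 2-fold higher after MG132, epoxomicin and ONX0914. Among 6 *Ifit* genes, which encode RNA-binding antiviral proteins, 5 were at least 2-fold higher with each inhibitor, with medians of 3.28, 3.90 and 2.93 that include *Ifit1bl1* at its lower bound. Among 10 *Gbp* genes, which encode GTPases that act on intracellular pathogens, 9, 10 and 9 were higher, with medians of 3.03, 3.44 and 2.12. Among 6 *Oas* genes, which encode sensors of double-stranded RNA, 6, 6 and 4 were higher, with medians of 2.03, 2.22 and 1.16. The Ifi200 medians of 2.49, 2.77 and 1.52 lay between those of the *Oas* and *Gbp* genes for each inhibitor, and no test of these differences was made. With the 4 genes matched by current symbol alone, the Ifi200 medians were 2.01, 2.45 and 1.01, which is below the *Oas* median after MG132 and after ONX0914.

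For each member, the 3 genes with the closest profile were found by the Euclidean distance over the log2 differences with the 3 inhibitors, among 12731 genes measured on all 4 arrays. For *Ifi202b* these were *Stat2* (distance 0.117), *Slfn8* (0.119) and *Oas1g* (0.131). For *Ifi204* they were *Casp4* (0.122), *Csf1* (0.129) and *Dusp1* (0.171), and for *Mnda* they were *Isg15* (0.153), *Ccl8* (0.285) and *Slfn4* (0.326). *Pyhin1* was closest to *Gadd45g* (0.104), *Zfp420* (0.132) and *Gbp9* (0.182), and *Mndal* to *Mxd1* (0.195), *Cyp26a1* (0.222) and *Tent5a* (0.227). The genes closest to *Aim2* were *Dnah6* (0.0580), *Kif3a* (0.0580) and *Slc35e4* (0.0918). The 3 differences of a gene share the DMSO array, so a distance over them is a description of these arrays.

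**Figure D5:**
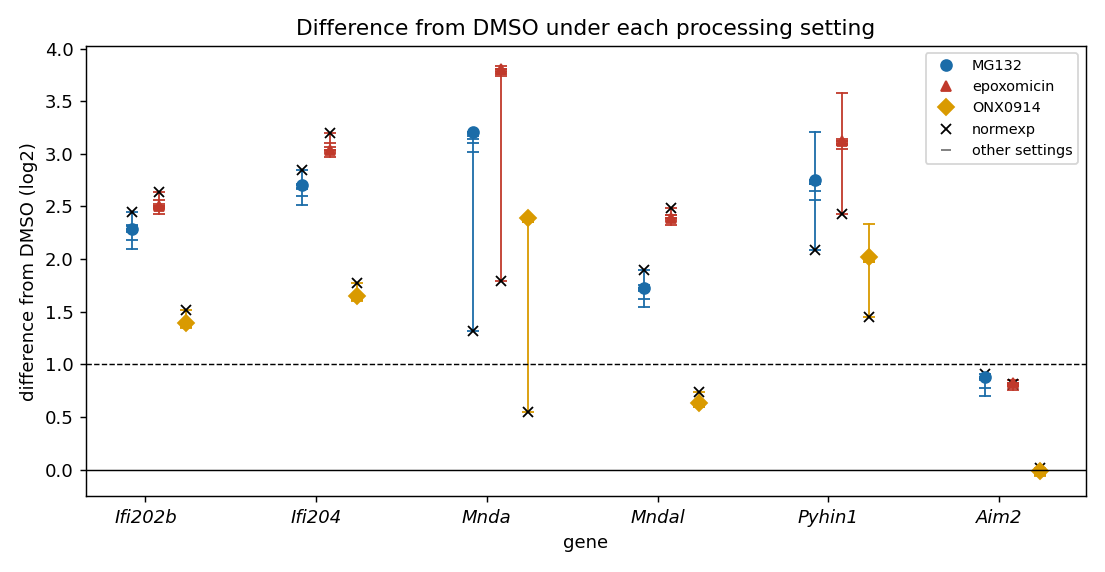
Log2 difference from DMSO of the 6 Ifi200 genes after MG132, epoxomicin and ONX0914; filled symbols are the values reported, crosses those under normexp, and dashes with lines the other settings and their range. *Mnda* has the widest range after MG132, from 1.32 to 3.21, whereas *Ifi204* after MG132 runs from 2.51 to 2.85.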

How the data were processed

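RNA of J774.1 cells was measured on 4 single-color arrays. Per the file headers, spots were quantified in Feature Extraction 10.7.1.1, and the authors deposited the processed intensity of every spot beside its background calls. They also deposited a GeneSpring table of log2 values, relative to each probe's median over the arrays. Its column medians were -0.05 for DMSO, 0.02 for MG132, -0.02 for epoxomicin and 0.01 for ONX0914, and how it was scaled between arrays is not given in the sources used here. The Methods name a human design, but the file headers describe a mouse design.

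Control and outlier spots were left out. Processed intensities were put on the log2 scale and each array was scaled to its 75th percentile. Of 39429 probes, 26581 (67.4%) were named through RefSeq accessions. The brightest probe stood for a gene. A comparison took the genes that the software called well above background on either array, and a dim signal was replaced by the lowest signal well above background where that was higher, which gives a bound. Depth has no equivalent here, and the single array per condition limits precision.

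The members, gene lists and tests were chosen with earlier results of these data known. All members, the listed genes at the ends of a list, the nearest genes and the 3 most alike genes were named by rule, and a few further genes of the lists were named after their values were seen. The alternatives were scaling to the median or to the 75th percentile of detected probes, quantile normalization, no scaling, normexp (limma 3.58.1 in R 4.3.3, offset 50, on median pixel brightness in place of the mean), the authors' table, the mean over probes, processed signals in place of bounds, genes above background on all arrays, and a 4-fold threshold. Alternatives with other sets of members were chosen after seeing the data. Promoters were aligned with Biopython 1.88. Python 3.11.15, numpy 2.4.6, pandas 2.3.3 and matplotlib 3.10.9 were used, and the calculations were tested on simulated data.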

Additional observations from a re-analysis of the deposited data

How the results depend on the processing

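With 1 array per condition, a shift of at least 0.0870 on the log2 scale counted as a move for a difference. That limit is the SD between spots of 1 probe times the square root of 2, and for a count the limit was 1.5 times. All counts at 2-fold kept within that limit under every other scaling, background correction, probe rule and filter, at 5 for MG132, 5 for epoxomicin and 3 to 4 for ONX0914. The MG132 median was 2.39 with a shift to the median, 2.31 with no scaling and 1.99 under normexp, and normexp gave 2.46 after epoxomicin and 1.09 after ONX0914. Without scaling, the median of all genes was -0.19 after MG132, -0.03 after epoxomicin and -0.04 after ONX0914. The sign of *Aim2* after ONX0914 turned under normexp (0.0182). At 4-fold, 2 members remained after ONX0914. This count did not hold under normexp, where the highest difference after ONX0914 was that of *Ifi204*, 1.77. *Mnda* also fell short of 4-fold under normexp after MG132 (1.32) and epoxomicin (1.79). With the 4 genes matched by current symbol alone, medians were 2.01, 2.45 and 1.01 and counts 3, 3 and 2, in part because fewer genes were counted. With *Ifi208*, *Ifi213* and *Ifi214* added, medians were 2.29, 2.50 and 1.39 and 7, 8 and 6 of 9 genes were at least 2-fold higher, beside 7.24%, 8.41% and 3.27% of all genes. *Mnda* and *Pyhin1*, dim after DMSO, moved most, and the offset of 50 that normexp adds lowers the differences of dim probes by construction. The mean over 3 probes put *Pyhin1* at 3.21, 3.58 and 2.34. With no scaling, or with a shift to the median, all differences of an inhibitor move by the same amount by construction. The cause of the other shifts was not tested. Of the differences of single genes, 131 stayed within the limit, 30 moved and 1 reversed. Part of the 131 could not have moved. Processed signals in place of bounds and the filter on all arrays change no member, since all were well above background on every array. The mean over probes cannot change *Ifi204*, *Mnda*, *Mndal* and *Aim2*, which had 1 probe each.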
